A study of Blastobotrys raffinosifermentans with 8 samples.

Results

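The genes described here are 50 locus tags of the yeast *Blastobotrys raffinosifermentans* LS3 that stood higher with gallic acid 15 min or 30 min after a medium shift and near the glucose culture at 2 h and 5 h. They were selected on these values themselves. For each of the 6160 tags on the array, a ratio was taken at each harvest time as the log2 level with gallic acid plus glucose minus the log2 level with glucose. Tags of the putative mitochondrial series and a stretch of tags near the end of chromosome C were left out of the choice, which left 6115 tags. Of these, 5637 tags (92.2%) had ratios between -0.5 and 0.5 at both 2 h and 5 h, and the 50 with the highest larger ratio of 15 min and 30 min were taken. The larger ratio fell at 15 min in 33 of the 50 tags and at 30 min in 17.

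The yeast, formerly called *Arxula adeninivorans*, can live on tannins. Gallic acid is the trihydroxylated benzoic acid set free when tannins are cleaved. Yeasts and other fungi take such acids apart by decarboxylation or hydroxylation followed by cleavage of the ring, with enzymes that are often made only when the substrate is present. Transcripts that rise within minutes of a medium change and return while the change lasts form a transient response, and only harvests at several times separate it from a lasting response.

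Total RNA of wild-type strain LS3 was hybridised to 8 one-colour Agilent arrays. The study's methods describe the culture for its arrays with protocatechuic acid, and they are read here as holding for these arrays too. By these methods the cells had grown overnight in minimal medium with glucose and nitrate. They were then pelleted and moved to nitrate medium holding 1% glucose alone (4 arrays) or 1% glucose together with 0.5% gallic acid (4 arrays). Each arm has 1 array for each harvest time (15 and 30 min, then 2 and 5 h), so no ratio has a replicate and no ratio was tested. Whether an arm's arrays came from separate cultures is not stated, so each p-value reflects only how much the arrays differ, which may be technical.

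All 8 arrays lay on the same slide, with the glucose arm in a row of its own and the gallic acid arm in the other, so that slide row and arm cannot be told apart. Across the 8 arrays, 56.7% to 81.9% of the spots were well above background. At 15 min the share was 58.9% with gallic acid and 78.6% with glucose, and at 30 min 67.7% and 72.5%. The gallic acid array of 15 min was thus the dimmer of its pair, while 33 tags were selected because they were brighter on it, and the part of this difference in their ratios was not tested. Ratios of the 10 control transcripts added to every sample lay between 0.00 and 0.28 at 15 min and between -0.35 and 0.03 at 30 min. They lay between -0.07 and 0.225 at 2 h and between -0.14 and 0.58 at 5 h. The files give no gene names, and none of the 50 tags has a function in the study's text. They are therefore described by their tags, their levels, their probes and their neighbours in tag order.

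Over the 50 tags the higher early ratio ran from 0.99 to 2.18, with a median of 1.204 on the log2 scale. It was at least 1, a doubling, in 44 of the 50, by the way the tags were chosen. From the scanner signal with a background offset of 50, the count was 19 with quantile normalisation and 15 with median scaling. Among all 6160 tags a ratio of at least 1 was found for 57 at 15 min (0.925%) and for 56 at 30 min (0.909%), which includes tags whose ratio lasted. The gallic acid array of the higher early time was the highest of all 8 arrays in 31 of the 33 tags higher at 15 min and in 14 of the 17 higher at 30 min. Over all tags that could be chosen, the shares were 15.2% for the 15 min and 11.7% for the 30 min array, and the choice favours a high value there. The glucose array of that time lay within 0.5 of the mean of the other glucose arrays in 25 of the 33, against 81.4% of the tags that could be chosen, and in 11 of the 17, against 85.3%. It lay at least 0.5 below that mean in 2 of the 33 (9.6% of the tags that could be chosen) and in 5 of the 17 (7.1%).

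**Figure D1:**
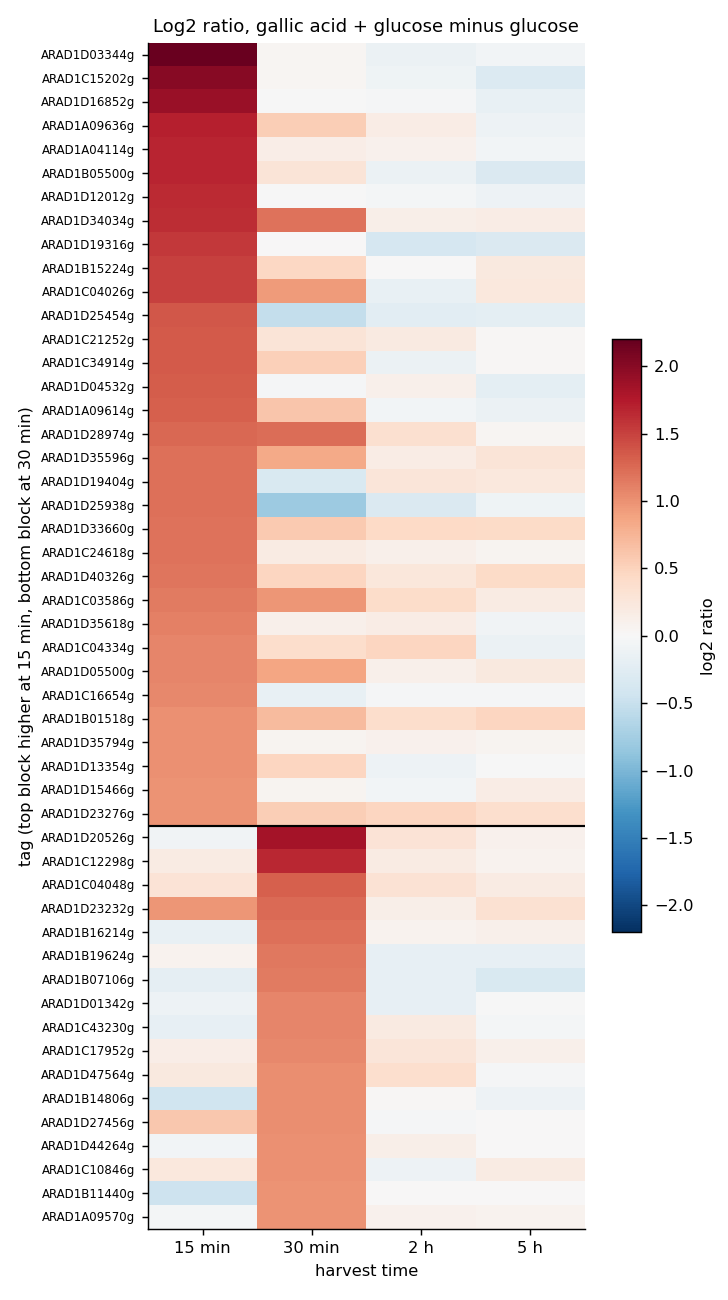
Log2 ratio (gallic acid plus glucose minus glucose, colour) of the 50 tags in rows at the 4 harvest times in columns, 1 array per arm and time; the line separates the 33 tags higher at 15 min from the 17 higher at 30 min. The late columns are pale because the choice required ratios between -0.5 and 0.5 there.

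The tag with the highest early ratio was ARAD1D03344g. Its log2 level on the glucose arrays was 6.66, 6.81, 6.35 and 6.82 from 15 min to 5 h, and on the gallic acid arrays 8.84, 6.85, 6.22 and 6.76. Only the gallic acid array of 15 min stood apart, and from 30 min on the arms lay within 0.13 of each other. The ratio of 2.18 at 15 min is a 4.52-fold difference. Each of its 10 probes was higher with gallic acid, by 0.68 to 3.11.

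ARAD1C15202g and ARAD1D16852g had the same shape at lower levels. ARAD1C15202g read 5.45, 5.10, 4.89 and 5.31 with glucose and 7.46, 5.15, 4.80 and 5.01 with gallic acid, a ratio of 2.00 at 15 min. ARAD1D16852g read 5.12, 4.69, 4.76 and 5.04 with glucose and 7.01, 4.67, 4.74 and 4.88 with gallic acid, a ratio of 1.89 at 15 min. In both, the other 7 arrays lay close together near the lower end of the scale, and all 10 probes had a ratio of at least 1.

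ARAD1D12012g also returned by 30 min. Its levels were 5.88, 5.48, 5.03 and 5.37 with glucose and 7.52, 5.47, 4.98 and 5.25 with gallic acid. The ratio went from 1.64 at 15 min to -0.01 at 30 min, and both arms were lower at 2 h than at 15 min.

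ARAD1A04114g and ARAD1B05500g added an early excess to a course that the arms otherwise shared. ARAD1A04114g read 6.84, 6.19, 7.33 and 6.67 with glucose and 8.52, 6.35, 7.42 and 6.61 with gallic acid, a ratio of 1.68 at 15 min. ARAD1B05500g read 5.35, 5.35, 6.003 and 5.44 with glucose and 7.03, 5.65, 5.87 and 5.13 with gallic acid, a ratio of 1.67 at 15 min. Both tags peaked at 2 h in the glucose arm and had a second, lower peak at 2 h in the gallic acid arm.

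In ARAD1D34034g the difference was still present at 30 min. It read 5.80, 5.92, 5.56 and 5.96 with glucose and 7.42, 7.12, 5.69 and 6.12 with gallic acid. The ratio was 1.62 at 15 min and 1.201 at 30 min, and the gallic acid arrays of these times were above all other arrays. ARAD1D28974g, named after its values were seen, was the only other tag of the 50 with both ratios at or above 1, at 1.27 and 1.23.

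**Figure D2:**
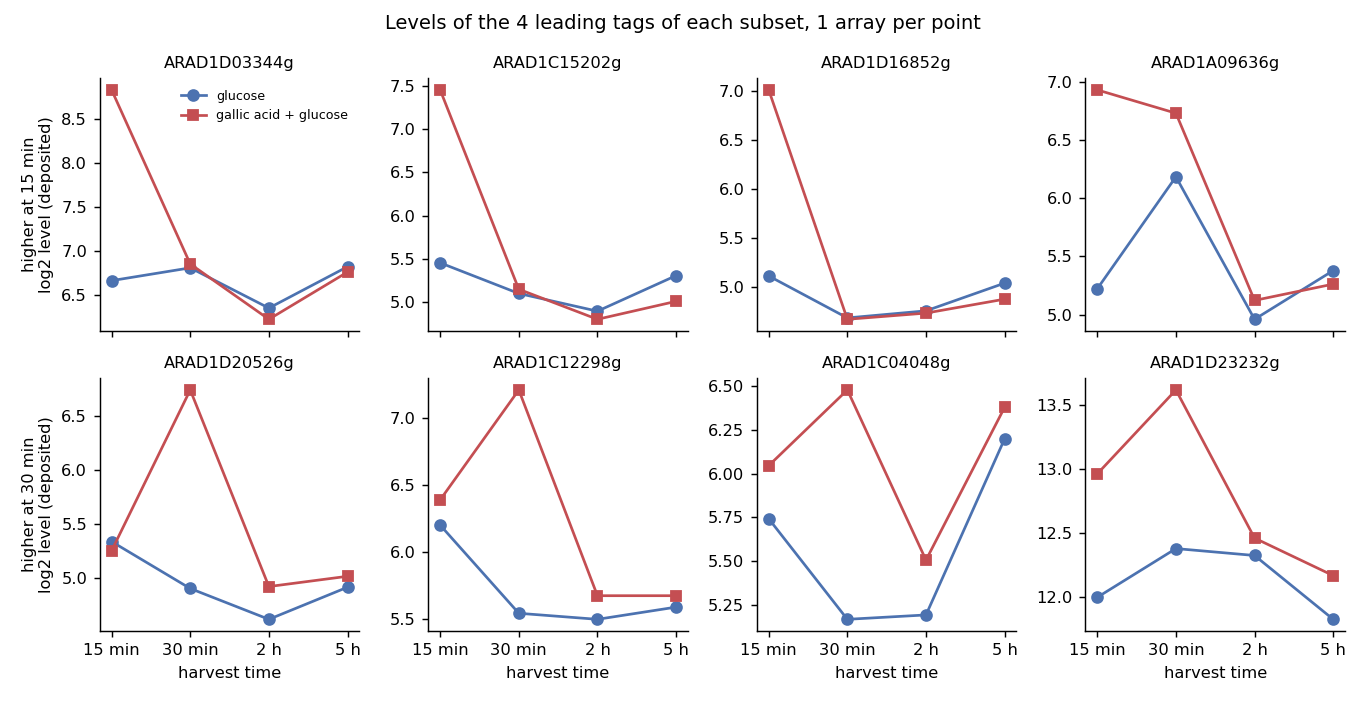
Log2 levels over harvest time of the 4 tags with the highest early ratio among those higher at 15 min (top row) and at 30 min (bottom row); circles are glucose and squares gallic acid plus glucose, 1 array per point, and the vertical scale differs between panels. In ARAD1D03344g, ARAD1C15202g and ARAD1D16852g the arms meet at 30 min, while in ARAD1D20526g and ARAD1C12298g they part only at 30 min.

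Among the 33 tags higher at 15 min, 12 still had a ratio of at least 0.5 at 30 min, against 4.96% of all tags, and 7 had a ratio below 0. Between 15 min and 30 min the gallic acid arm fell by at least 0.5 in 24 of the 33, with a median change of -0.98, and the glucose arm stayed within 0.5 in 24 of them. Over all tags that could be chosen, the gallic acid arm fell by at least 0.5 over this interval in 12.5% and the glucose arm stayed within 0.5 in 79.1%. The 33 tags were chosen for being high on the array that this interval starts from. The ratio of ARAD1D25938g went furthest the other way, from 1.21 at 15 min to -0.80 at 30 min, a tag picked out after its values were seen.

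The 17 tags higher at 30 min were led by ARAD1D20526g. It read 5.34, 4.91, 4.62 and 4.92 with glucose and 5.25, 6.74, 4.92 and 5.02 with gallic acid, a ratio of 1.84 at 30 min after -0.08 at 15 min. It has 3 probes, which had ratios of 1.42, 1.89 and 1.92. The arms parted at 30 min alone.

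ARAD1C12298g, also with 3 probes, read 6.20, 5.55, 5.50 and 5.59 with glucose and 6.39, 7.21, 5.68 and 5.68 with gallic acid. Its ratio at 30 min was 1.66 from the medians per array, while the ratios of the single probes were 1.22, 1.35 and 1.66. In the glucose arm its highest array was that of 15 min.

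ARAD1D23232g was by far the brightest of the 50 tags. It read 12.00, 12.38, 12.33 and 11.83 with glucose and 12.96, 13.62, 12.46 and 12.17 with gallic acid, so that the gallic acid arm was higher at every harvest time. Its ratio was 0.97 at 15 min and 1.24 at 30 min, and its 6 probes differed little, with an SD over probes of 0.09.

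In several tags of the later subset the glucose arm dropped while the gallic acid arm held. ARAD1B16214g read 7.34, 6.32, 6.94 and 6.58 with glucose and 7.18, 7.53, 7.01 and 6.69 with gallic acid, a ratio of 1.21 at 30 min. ARAD1B19624g read 6.995, 6.07, 5.77 and 6.55 with glucose and 7.08, 7.24, 5.59 and 6.37 with gallic acid, a ratio of 1.16. Their 30 min ratios held a fall of the glucose arm from 15 min as well as the level of the gallic acid arm, which moved by less than 0.5. In 6 of the 17 tags the glucose arm fell by at least 0.5 from 15 min to 30 min while the gallic acid arm did not. Such a course by itself places a tag in the later subset. The share of all tags with this course was not taken, so the count only describes the 17.

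ARAD1B07106g showed the reverse, a rise in the gallic acid arm. It read 5.46, 6.12, 6.24 and 5.57 with glucose and 5.26, 7.26, 6.07 and 5.23 with gallic acid, a ratio of 1.14 at 30 min. Both arms rose from 15 min to 30 min, and the gallic acid arm rose further. Across the 17 tags the gallic acid arm rose by at least 0.5 from 15 min to 30 min in 13, with a median of 0.83, and fell by at least 0.5 from 30 min to 2 h in 16, with a median of -1.29. Over all tags that could be chosen, 12.4% rose and 16.8% fell by as much over these intervals, but the 17 were chosen for being high at 30 min.

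At 15 min these 17 tags had a median ratio of -0.05, and 9 of them had a ratio below 0. At 30 min the 33 tags of the other subset had a median ratio of 0.29. A ratio of at least 0.5 at the other early time was found in 2 of 17 and in 12 of 33. Over all tags the shares were 4.69% at 15 min and 4.96% at 30 min. The counts describe the tags chosen and were not tested.

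**Figure D3:**
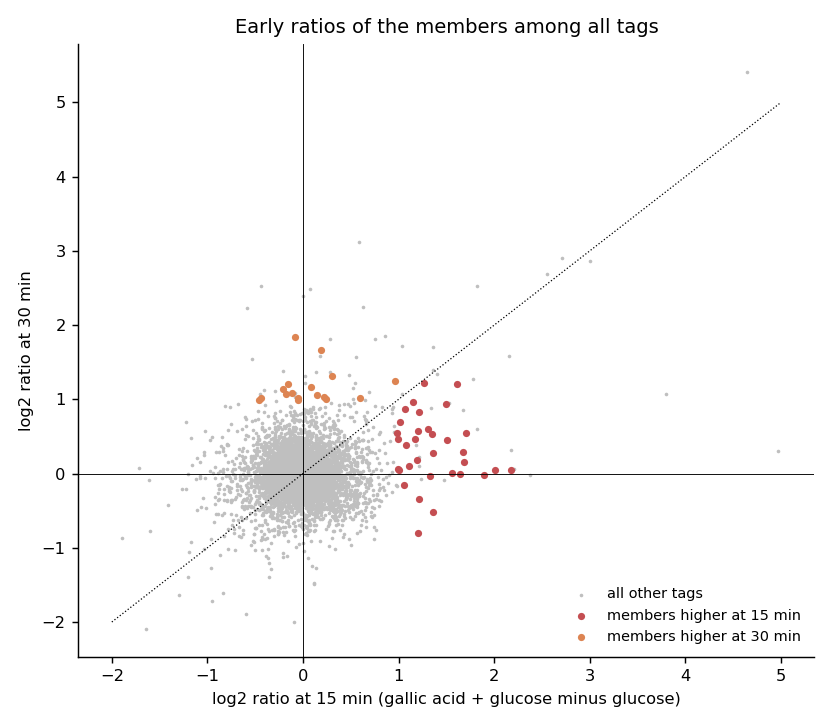
Log2 ratio at 30 min against that at 15 min for all tags (grey) with the 33 tags higher at 15 min (red) and the 17 higher at 30 min (orange); the dotted line marks equal ratios. Some grey points have a larger early ratio as high as that of the coloured ones. Their ratio at 2 h or 5 h lies outside -0.5 to 0.5, or they belong to the tags left out of the choice. For grey points far below 0 this need not hold.

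The limits of the choice were narrow. Just inside the limit of 50 lay ARAD1D23276g with 0.988 at 15 min and ARAD1A09570g with 0.987 at 30 min. Just outside lay ARAD1D04158g with 0.985 at 15 min and ARAD1C13772g with 0.983 at 30 min. These 4 tags cannot be told apart by the measurement. ARAD1D23276g read 6.82, 7.86, 5.99 and 6.67 with glucose and 7.81, 8.41, 6.46 and 7.03 with gallic acid, so that its gallic acid array of 30 min was brighter than that of 15 min.

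The limit at 2 h and 5 h mattered as much. ARAD1D03366g read 4.86, 4.71, 4.91 and 4.90 with glucose and 9.83, 5.01, 4.65 and 5.42 with gallic acid. Its ratio of 4.97 at 15 min is more than that of any of the 50 tags, but its 5 h ratio of 0.52 lay just over the limit. It passed the limit and led the chosen tags from the scanner signal with an offset of 50, with quantile normalisation and with median scaling. With an offset of 0 ARAD1D16852g led, and with the processed signal less its 75th percentile ARAD1A09636g did. From the deposited values, ARAD1D03344g led with the median or the mean over probes. Another tag led with the brightest probe, and ARAD1D16852g led with the median of the ratios of single probes. ARAD1B13508g, with 3.80 at 15 min and 0.56 at 5 h, and ARAD1D35398g, with 2.17 and 0.54, missed the limit in the same way as ARAD1D03366g. These 3 tags were named after their values were seen. At 5 h the ratios of the control transcripts reached 0.58, above the 5 h ratios of all 3.

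The probes of a tag share an array and are no replicates, but they show whether a ratio belongs to the whole transcript. The 50 tags have 428 probes, of which 423 were higher with gallic acid at the time of the higher ratio. Every probe was higher in 45 of the 50. The tags were chosen by medians over these same probes at that time, so high counts follow largely from the choice. The counts were not taken over all tags. The SD of the ratio over the probes of a tag had a median of 0.32. In 32 tags every probe passed the scanner's test of being well above background with glucose and with gallic acid at that time, and in 3 fewer than 50% of the probes were so in the glucose arm.

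In 3 tags the ratio rested on a single probe, the first or the second of the tag by the position in the probe's name. For ARAD1D01342g, with a ratio of 1.08 at 30 min, the probe at position 54 had a ratio of 3.09 and the other 5 lay between -0.25 and 0.52. For ARAD1D19404g, with 1.21 at 15 min, the probe at position 86 had 2.40 and the other 9 lay between -0.32 and 0.56. For ARAD1D27456g, with 1.02 at 30 min, the probe at position 94 had 4.01 and the other 3 lay between 0.14 and 0.35. The median of the probes' own ratios was 0.21, 0.31 and 0.26 in these tags, against at least 0.5 in the other 47. The last 2 tags were named after their values were seen.

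Some of the 50 tags lie side by side, with tag numbers read as the order along a chromosome. ARAD1A09614g and ARAD1A09636g adjoin. ARAD1A09614g read 4.80, 5.47, 4.98 and 5.36 with glucose and 6.11, 6.07, 4.92 and 5.22 with gallic acid, and ARAD1A09636g read 5.22, 6.18, 4.96 and 5.38 with glucose and 6.93, 6.73, 5.12 and 5.26 with gallic acid. From 15 min to 30 min both rose in the glucose arm and not in the gallic acid arm, and their ratios were 1.31 and 1.71 at 15 min and 0.60 and 0.55 at 30 min. Each has 6 of its 10 probes marked with an X in the array design, a mark whose meaning is not given in the sources used here. Among the 50 tags the mark is also on 8 of the 10 probes of ARAD1B07106g, all 4 of ARAD1D27456g and 1 of the 10 of ARAD1B01518g. ARAD1A09570g, another of the 50, lies 2 tags before ARAD1A09614g.

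ARAD1C04026g and ARAD1C04048g adjoin but peaked at different times. ARAD1C04026g, with 3 probes, read 6.65, 7.11, 6.55 and 7.27 with glucose and 8.15, 8.05, 6.38 and 7.50 with gallic acid, a ratio of 1.50 at 15 min and 0.94 at 30 min. ARAD1C04048g read 5.74, 5.17, 5.19 and 6.20 with glucose and 6.05, 6.48, 5.51 and 6.38 with gallic acid, a ratio of 0.30 at 15 min and 1.31 at 30 min.

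ARAD1D35596g and ARAD1D35618g adjoin on chromosome D. ARAD1D35596g read 7.98, 7.74, 6.22 and 7.16 with glucose and 9.19, 8.58, 6.38 and 7.45 with gallic acid, and ARAD1D35618g read 5.63, 5.30, 5.20 and 5.66 with glucose and 6.74, 5.402, 5.36 and 5.59 with gallic acid. Their ratios at 15 min were 1.212 and 1.104, and at 30 min 0.84 and 0.11. In all, 11 of the 50 tags fell into 5 groups whose members lie within 5 tags of each other.

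The tags next to the 50 that are not among them had a raised early ratio more often than all tags did. A neighbour with a ratio above the limit of the choice is missing from the 50 only because of its late ratios. Next to the 33 tags higher at 15 min lie 61 other tags. Of these, 6 (9.84%) had a 15 min ratio of at least 1 against 0.925% of all tags, and 14 (23.0%) had at least 0.5 against 4.69% of all tags. Next to the 17 tags higher at 30 min lie 33 other tags, of which 1 (3.03%) had a 30 min ratio of at least 1 against 0.909% of all tags, and 6 (18.2%) had at least 0.5 against 4.96%.

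The highest of these neighbours was ARAD1D03366g, described above, which lies next to ARAD1D03344g. ARAD1D33682g with 2.55 and ARAD1D33638g with 1.36 at 15 min lie on either side of ARAD1D33660g, whose own ratio was 1.201. ARAD1B01496g with 2.71 at 15 min lies next to ARAD1B01518g, and ARAD1B14828g with 2.52 at 30 min lies next to ARAD1B14806g. All of these neighbours had a late ratio over the limit of 0.5, and the tags of this paragraph were named after their values were seen. At a distance of 2 tags, the median ratio was 0.08 on the lower side and 0.03 on the upper side of the 33 tags, against 0.17 and 0.29 next to them. Of the tags 5 positions below the 33, 18.2% had a ratio of at least 0.5, against 16.1% directly below them. Around the 17 tags no decline with distance was seen: the median was 0.03 and 0.14 next to them and 0.18 at 4 positions above. The strand of the tags was not used here, so overlap between neighbouring transcripts cannot be told apart from separate transcripts.

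**Figure D4:**
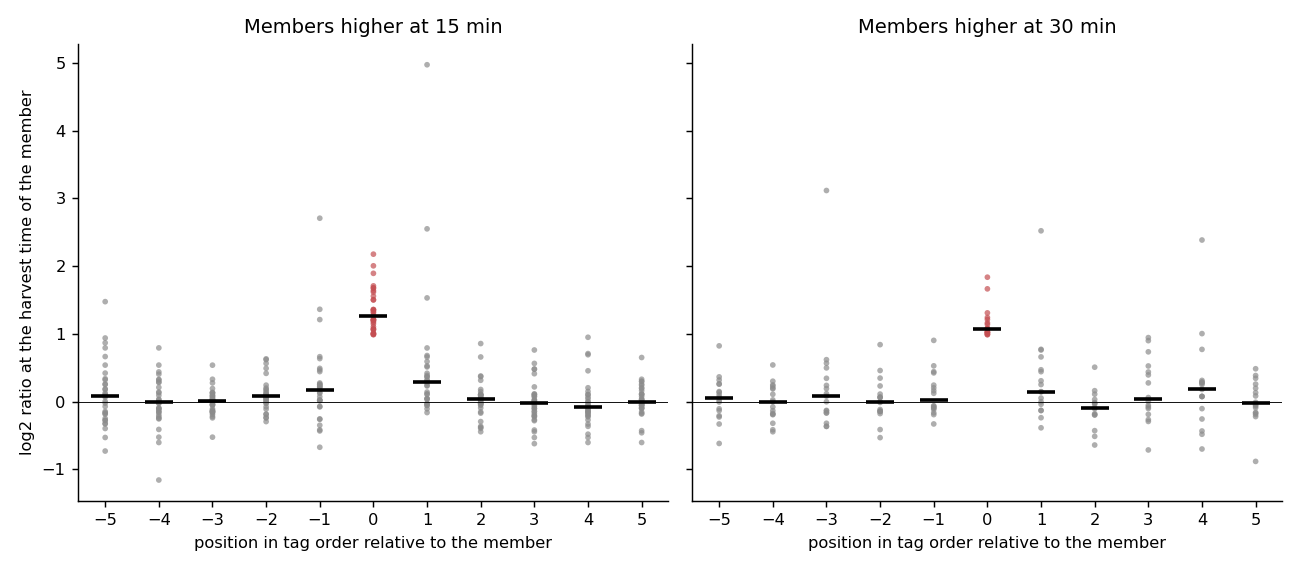
Log2 ratio at 15 min (left, for the 33 tags higher then) and at 30 min (right, for the 17) of the tags themselves (red, position 0) and of other tags up to 5 positions away in tag order (grey), 1 point per tag; black bars are medians. Beside the 33 tags the median is 0.17 on the lower and 0.29 on the upper side, and beside the 17 it is 0.03 and 0.14.

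By chromosome, 25 of the 50 tags lie on D, 13 on C, 8 on B and 4 on A. The shares of the 50 were 50% on D, 26% on C, 16% on B and 8% on A, against 35.7%, 32.4%, 17.2% and 14.2% of the tags that could be chosen. Of the 33 tags higher at 15 min 19 lie on D, and of the 17 higher at 30 min 6 do. These shares were not tested.

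The rule used differences between the arms, not the change that the arms share between 2 h and 5 h, so this change could be tested. The only residual of the fit is the difference between the 2 h and 5 h ratios, however, and the rule limited both in these tags. Between these harvests 25 of the 50 tags rose and 5 fell in the mean of both arms at an adjusted p below 0.05, and 20 did not pass. Over all 6160 tags 28.4% rose and 20.7% fell. Over the 5659 tags that meet the same limits at 2 h and 5 h, 28.5% rose and 20.4% fell. The median change was 0.31 for the 50 tags and 0.09 for all tags. Harvest time and the column of the slide cannot be told apart.

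The tags with the lowest p rose by far more than they differed between the arms. ARAD1B11440g read 9.28, 8.61, 8.53 and 12.49 with glucose and 8.82, 9.60, 8.53 and 12.50 with gallic acid. It rose by 3.97 (SE 0.093, adjusted p = 7.13e-05), against a ratio of 0.99 at 30 min that placed it among the 50. ARAD1A09570g read 8.09, 7.88, 7.49 and 11.37 with glucose and 8.04, 8.87, 7.59 and 11.45 with gallic acid, and rose by 3.87 (SE 0.093, adjusted p = 7.13e-05).

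The lowest p among the falling tags belonged to ARAD1B07106g, which fell by 0.75 (SE 0.10, adjusted p = 0.00316). ARAD1A04114g fell by 0.73 (adjusted p = 0.00336) and ARAD1B05500g by 0.65 (adjusted p = 0.00505). Of the leading tags, ARAD1D03344g rose by 0.51 (adjusted p = 0.00922) and ARAD1D01342g by 1.41 (adjusted p = 6e-04), while ARAD1C15202g, at 0.31, did not pass (adjusted p = 0.0566). ARAD1D16852g, at 0.21, and ARAD1D20526g, at 0.20, did not pass either (adjusted p = 0.129 and 0.17).

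This test has 1 residual degree of freedom, since it rests on 4 arrays. The eBayes step adds a prior variance estimated over all tags, worth 4.186 degrees of freedom. In each SE and p-value this prior therefore weighs more than the spread of the tag's own arrays. In a fit of all 8 arrays, whose residual holds the early ratios that chose the tags, 10 of the 50 rose and 0 fell, with 3047 of all tags at an unadjusted p below 0.05 and 2481 after adjustment. When each array was left out of that fit in turn, the count among the 50 was 3 without the glucose array of 5 h, 3 without the gallic acid array of 2 h, 4 without that of 5 h, 7 without the glucose array of 2 h, 13 without either 30 min array and 21 without either 15 min array. ARAD1B11440g and ARAD1A09570g passed in every fit tried, the smallest change being 3.85 and 3.59.

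**Figure D5:**
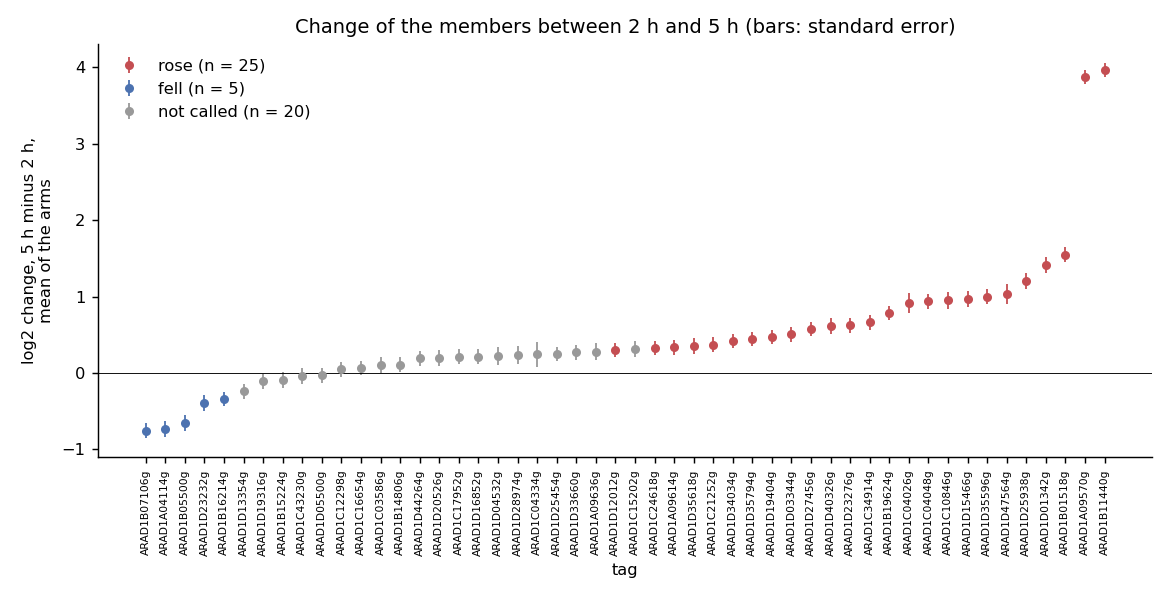
Log2 change from 2 h to 5 h in the mean of both arms for each of the 50 tags (points) with its standard error (bars); red tags rose and blue tags fell at a limma adjusted p below 0.05, and grey tags did not pass. ARAD1B11440g and ARAD1A09570g stand apart at 3.97 and 3.87.

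Of the tags to which the study's text gives a part in the breakdown of aromatic acids, 9 could be chosen, and none of these 9 was among the 50. Any such tag in the stretch of chromosome C that the choice left out is not counted here. The text picks most of the candidate hydroxylases from arrays with protocatechuic acid. At 15 min 0 of the 9 had a ratio of at least 1, and at 30 min 1 did. That tag was ARAD1C00330g, a candidate 4-hydroxybenzoate 1-hydroxylase, with 4.68, 4.86, 4.69 and 4.67 with glucose and 5.54, 6.72, 6.12 and 5.96 with gallic acid. Its ratios were 0.86, 1.85, 1.44 and 1.29, which lasted to 5 h. On the glucose arrays 0% to 20% of its probes were well above background, against 70% to 100% on the gallic acid arrays. The size of its ratios is thus limited by background with glucose.

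ARAD1D18458g encodes the catechol-1,2-dioxygenase Acdo1p, which opens the ring of catechol. It read 5.32, 5.92, 6.69 and 5.12 with glucose and 5.19, 6.22, 6.66 and 5.09 with gallic acid. The arms followed the same course, and its higher early ratio was 0.30, at 30 min. At 30 min and 2 h, 100% of its probes passed the scanner's background test in both arms. At 15 min 20% passed with gallic acid and 80% with glucose, and at 5 h 10% and 5%. Background therefore limits its ratios at 15 min and 5 h. The study's text reports induction of this gene by gallic acid from quantitative RT-PCR and from microarrays, for which it cites this series. Its RT-PCR used another strain with gallic acid as the sole carbon source. There the level was highest later than the last harvest here, and here glucose was present in both arms. ARAD1D18502g, annotated as a phenol hydroxylase, had a ratio of 0.56 at 15 min and -0.32 at 30 min.

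The other candidate hydroxylases had early ratios below 1. ARAD1C03498g had 0.79 at 15 min and -0.85 at 2 h. ARAD1D27984g had 0.25 and 0.11 at the early times, and ARAD1D18392g had -0.48 and -0.18. ARAD1C08580g, ARAD1C08558g and ARAD1A17402g stayed between -0.12 and 0.21 at the early times, and no more than 33.3% of the probes of each were well above background on any array.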

How the data were processed

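The members and lists were chosen with earlier results of these data known. The authors deposited scanner files with spot intensity values from Agilent Feature Extraction 11.5.1.1, flags of 0 or 1 (other values, deposited without a unit), and a table of log2 values. Per the labels, limma's normexp correction and quantile normalisation produced that deposited log2 table. Which offset and which signal went in is not given in the sources used here. Its column medians lay between 5.63 and 5.65, and each column correlated best with its own array. Its values are the main values, because the choice uses them; the scanner files gave the alternatives. Levels are medians over the probes of a tag (56311 probes, 6160 tags). No spot was saturated, and the number of arrays limits the precision.

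The change from 2 h to 5 h was tested with limma 3.58.1 in R 4.3.3 (lmFit and eBayes with arm and harvest time, Benjamini-Hochberg over all tags, threshold 0.05), and the code was tested on simulated data. Tags named are, per subset, the 8 with the highest early ratio, adjoining members, the lowest p of the late change in each direction, the 2 tags on either side of the limit of 50, and the pathway tags. Alternatives were other background offsets, scalings, probe summaries, limits and filters, and left-out arrays.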

Additional observations from a re-analysis of the deposited data

Results flagged for a closer look

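In 12 of 68 sets of 4 arrays (an arm of a named tag), a gap test at the 95% level set the highest or the lowest array apart from the other 3. Chance flags about 1 in 20 such sets. The 4 arrays of an arm are different harvest times, not replicates.

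Among the selected tags, the gallic acid array of 15 min stood above the other gallic acid arrays in ARAD1C15202g (7.46), ARAD1D16852g (7.01) and ARAD1D35618g (6.74). These tags were chosen for a high value on that array.

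In the glucose arm, which was not selected to be high, the highest array stood apart for ARAD1B05500g at 2 h (6.003), for ARAD1C12298g at 15 min (6.20) and for ARAD1A09570g at 5 h (11.37).

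Among the pathway tags, ARAD1C03498g was set apart at 2 h with glucose (8.45) and ARAD1D27984g was low at 2 h with glucose (6.79). ARAD1C00330g was high at 30 min with glucose (4.86), where 0% of its probes were well above background. ARAD1C08558g was high at 2 h with gallic acid (4.86), where 10% of its probes were. ARAD1A17402g was low at 2 h in both arms (4.53 with glucose and 4.50 with gallic acid).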

How the results depend on the processing

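Which tags make up the 50 depended on the processing. Of the 50, 34 were chosen again from the scanner signal with an offset of 50, 32 with an offset of 0, 32 with median scaling, 23 with the processed signal less its 75th percentile, 40 with the mean and 16 with the brightest probe of a tag. ARAD1D03344g, ARAD1A04114g, ARAD1D34034g, ARAD1D35596g and ARAD1B16214g were the 5 chosen under all 6. Late limits of 0.25 and 1 kept 31 and 27, and a minimum of 4 probes kept 44. A filter on dim tags kept 50, which says little. It looked only at the gallic acid array that each tag was chosen for being high on, not at the glucose array. Ranking without the 15 min arrays kept 23 and without the 30 min arrays 34. The median of the probes' own ratios, added after seeing the data, kept 39. Where both early times were ranked, 26 to 35 of the chosen tags were higher at 15 min, against 33.

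The sign of the ratios changed in fewer tags than membership of the 50 did, which follows largely from the choice. The tags were taken for high ratios, and every setting reuses the same arrays. The counts of signs given here are therefore no independent test of the direction. All 50 tags stayed above 0 under 5 of these 6 settings and 48 did with the brightest probe, while the number with a ratio of at least 1 ran from 15 with median scaling to 50 with an offset of 0. Of 150 values of 25 named tags, 75 moved by less than the SD over their probes, 75 by more, and 0 changed sign.

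Between 2 h and 5 h, 3024 tags changed. Bonferroni adjustment left 139 tags and 2 of the 50, and the fit of all arrays left 10 of the 50. Leaving out arrays in that fit gave 1257 to 2633 tags and 3 to 21 of the 50. With 4 arrays no array could be left out, since no residual degree of freedom would remain. Without arm as a block, 2788 tags and 28 of the 50 changed. Other settings gave 23 to 35 of the 50. Dim tags are limited by background: in 3 of the 50 fewer than 50% of the probes were well above it with glucose.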

Other observations

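Within the limits at 2 h and 5 h, 44 tags were higher with gallic acid by at least 1 at 15 min or 30 min and 22 were lower by at least 1. In the reverse choice, of 5137 tags with ratios between -0.5 and 0.5 at both early times, 20 were higher by at least 1 at 2 h or 5 h. These counts come from 1 array per arm and harvest time and were not tested.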
